A study of Mus musculus with 12 samples.

Results

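The 2 H3K4me3 peak lists of day 5 C2C12 cultures, those of myotubes and of the reserve cells beside them, are compared here. Every called peak on chromosomes 1 to 19 and X was a member, 26024 in myotubes and 15910 in reserve cells, or 41934 of the 94584 peaks in the 8 lists used from the series. C2C12 is a mouse myoblast line that stops dividing and fuses in low serum, here 2% horse serum. Myotubes are the fused, multinucleated cells, and reserve cells are the mononucleated cells that stay behind. The fractions were parted by a brief trypsin treatment and carry no transgene, drug or deletion that the labels name. Chromatin was mapped by CUT&RUN, in which an antibody guides a nuclease that cuts out the fragments to be sequenced. Day 0 and day 1 H3K4me3 lists, with 19206 and 17653 peaks, were used as earlier points of the same culture. The sample titles abbreviate the day 5 fractions, and these abbreviations were taken to mean the myotubes and reserve cells that the design text names. Each state was 1 library, so differences have no replicate check and no p-value could be had.

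H3K4me3, the trimethylation of lysine 4 of histone H3, sits around the starts of genes that are active or poised. Its usual form is a short domain just downstream of the start, and a wide domain that runs into the gene is known from genes that define a cell type. In skeletal muscle the MyoD family of basic helix-loop-helix factors binds E-boxes, works with MEF2 factors and switches on the sarcomere genes. Reserve cells are used as a culture model of the quiescent satellite cell.

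The 250 bases before the RefSeq start (GRCm38.p6, the build called mm10) of 4 muscle genes and 2 matrix genes show what the peaks covered or left bare. They were picked because these genes are among those with the largest contrast between the fractions or, for Myog, because it is the myogenic factor of fusing cells. Capitals mark matches to 6 searched motifs on either strand: the E-boxes CAGCTG and then CAGGTG, the MEF2 site, the CArG box bound by serum response factor, the AP-1 site TGANTCA, and the TATA box TATAAA. The windows of Actc1 (chr2:114052876-114053125, minus strand), Acta1 (chr8:123894776-123895025, minus strand), Myh3 (chr11:67078050-67078299, plus strand), Myog (chr1:134289754-134290003, plus strand), Col1a2 (chr6:4505368-4505617, plus strand) and Prelp (chr1:133921402-133921651, minus strand) read as follows.
Actc1: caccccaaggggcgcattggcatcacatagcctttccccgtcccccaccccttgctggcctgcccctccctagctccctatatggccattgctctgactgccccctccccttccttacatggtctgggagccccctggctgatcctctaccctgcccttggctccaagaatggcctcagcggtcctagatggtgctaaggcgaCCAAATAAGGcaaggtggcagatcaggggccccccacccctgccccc
Acta1: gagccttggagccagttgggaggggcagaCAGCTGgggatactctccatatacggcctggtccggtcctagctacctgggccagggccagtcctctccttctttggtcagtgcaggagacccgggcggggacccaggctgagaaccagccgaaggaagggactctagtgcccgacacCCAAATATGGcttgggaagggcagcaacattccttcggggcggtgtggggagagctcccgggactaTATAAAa
Myh3: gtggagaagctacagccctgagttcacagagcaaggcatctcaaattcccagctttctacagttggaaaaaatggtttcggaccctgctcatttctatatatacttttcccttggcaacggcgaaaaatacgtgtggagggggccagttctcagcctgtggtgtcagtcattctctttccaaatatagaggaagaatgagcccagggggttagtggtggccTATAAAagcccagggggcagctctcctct
Myog: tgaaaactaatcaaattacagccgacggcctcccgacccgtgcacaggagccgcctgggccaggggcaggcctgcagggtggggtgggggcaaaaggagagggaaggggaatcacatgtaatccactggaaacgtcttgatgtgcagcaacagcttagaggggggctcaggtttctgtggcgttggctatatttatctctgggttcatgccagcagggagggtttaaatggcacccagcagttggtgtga
Col1a2: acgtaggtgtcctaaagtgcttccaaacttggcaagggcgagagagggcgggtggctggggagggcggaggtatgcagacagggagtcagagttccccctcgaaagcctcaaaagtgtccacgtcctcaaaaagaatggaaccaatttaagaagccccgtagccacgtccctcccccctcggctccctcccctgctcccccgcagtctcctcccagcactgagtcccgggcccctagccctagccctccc
Prelp: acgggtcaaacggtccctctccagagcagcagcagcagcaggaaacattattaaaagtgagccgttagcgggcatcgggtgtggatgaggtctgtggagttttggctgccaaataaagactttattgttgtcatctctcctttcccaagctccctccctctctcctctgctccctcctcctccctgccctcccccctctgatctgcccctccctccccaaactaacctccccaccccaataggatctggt
Peaks of myotubes covered all 250 bases of the Actc1, Acta1, Myh3 and Myog windows, and peaks of reserve cells covered 0 of the 250 in each of these 4. The Prelp window was the reverse, with 0 bases covered in myotubes and 250 in reserve cells. The Col1a2 window was covered over all 250 bases in both, so its difference lay further downstream. The Actc1 window held a CArG box that began 47 bases before the start. The Acta1 window held a CAGCTG E-box 221 bases, a CArG box 73 bases and a TATA box 7 bases before the start. The Myh3 window held a TATA box 29 bases before the start, and no match to the 6 patterns stood in the Myog, Col1a2 or Prelp windows. Other E-boxes and near matches were not searched, so a window without a match may still hold such elements. The RefSeq start lay 673 bp from the GENCODE 5′ end of Actc1 and 804 bp from that of Col1a2, and within 24 bp of it for the other 4.

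The myotube list had more peaks, and the extra ones were short and low. Median peak length was 1218 bp in myotubes, against 1730 bp in reserve cells, and the peaks summed to 43.74 Mb and 29.752 Mb. The median fold enrichment, the authors' ratio of fragment pileup at the summit to local background, was 9.55 in myotubes and 39.9 in reserve cells. Read totals per library were not among the sources used here. The lowest local background implied by pileup and fold was 1.22 fragments per base in myotubes and 1.08 in reserve cells, against 1.47 at day 0 and 1.25 at day 1. The fold of the peaks thus differed between the lists, depth is unknown, and the part of either in the number and length of peaks was not tested.

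Nearly all reserve cell peaks had a myotube peak on them, but a large share of myotube peaks had no reserve cell peak. Of the 26024 myotube peaks, 55.3% (95% exact Clopper-Pearson interval 54.7 to 55.9) were overlapped by at least 1 bp of a reserve cell peak, and 11623 stood alone. Of the 15910 reserve cell peaks, 93.7% (93.3 to 94.1) were overlapped by a myotube peak, and 998 stood alone. These intervals cover counting error only. The lone peaks had a median length of 486 bp in myotubes, against 376.5 bp in reserve cells, against 2126 and 1809 bp for the overlapped peaks of the same lists. Their median fold was 4.57 in myotubes and 5.28 in reserve cells, against 31.0 and 42.7 for overlapped peaks.

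**Figure D1:**
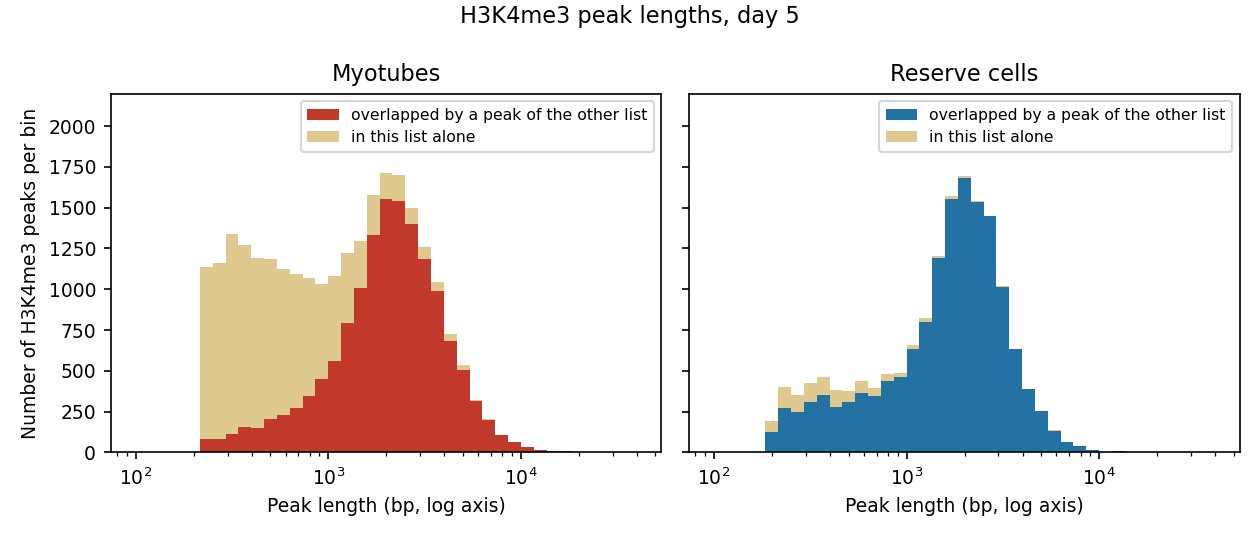
Number of H3K4me3 peaks by length (bp, log axis) in day 5 myotubes (left) and reserve cells (right), 1 library each, stacked by whether a peak of the other list overlaps it by at least 1 bp. The 11623 lone myotube peaks pile up below 1000 bp, while the 998 lone reserve cell peaks form a thin layer.

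With the 15000 peaks of highest fold in each list the shares were closer, though still apart. Then 85.7% (85.1 to 86.3) of myotube peaks and 88.6% (88.1 to 89.1) of reserve cell peaks were overlapped, which left 2142 and 1706 alone. The fold at the 15000th peak was 7.06 in myotubes and 4.32 in reserve cells, and the next peak outside had the same value in each list.

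Where both fractions had a peak, the myotube peak was usually the longer. In 13401 places a single peak of each list matched a single peak of the other, with median lengths of 2091 bp in myotubes, against 1839 bp in reserve cells. The median log2 ratio of myotube to reserve cell length was 0.18 (quartiles -0.015 to 0.46), and 73.3% of pairs were longer in myotubes. Myotube peaks were at least 2-fold longer in 1338 pairs and reserve cell peaks in 187. Among 15000 peaks each, 74.2% of 12352 pairs were longer in myotubes. A myotube peak spanned 2 or more reserve cell peaks 636 times, and a reserve cell peak spanned 2 or more myotube peaks 181 times.

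The lone peaks of the fractions differed in where they lay and in their past. Of lone myotube peaks, 13.1% (12.5 to 13.7) touched a promoter, the 1 kb either side of a transcript start, 60.5% lay elsewhere in genes and 26.4% between genes. Of lone reserve cell peaks, 29.2% (26.4 to 32.1) touched a promoter, 41.9% lay elsewhere in genes and 29.0% between genes. Overlapped peaks touched promoters in 80.5% of cases in myotubes and 78.2% in reserve cells. A day 0 peak already stood at 21.5% (20.8 to 22.3) of lone myotube peaks and at 71.6% (68.7 to 74.4) of lone reserve cell peaks. Counting day 0 and day 1 together, the shares were 24.8% for lone myotube peaks and 81.2% for lone reserve cell peaks. The day 0 shares among 15000 peaks each were 40.2% and 84.5%. The promoter shares of lone peaks among 15000 each were 24.2% in myotubes and 34.0% in reserve cells, closer than with all peaks.

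The strongest lone peaks away from promoters lay inside named genes or between genes. In myotubes they lay inside Nrg1, a neuregulin (chromosome 8, 32151156 to 32153722, fold 55.8), inside Lgr6, an R-spondin receptor (chromosome 1, 135082870 to 135086647, fold 53.1), in the gene records 1700123M08Rik and Gm26895 (chromosome 4, 11986442 to 11990239, fold 48.1), in Ppm1e, a protein phosphatase (chromosome 11, 87307940 to 87310640, fold 46.8), and in Acsl6, an acyl-CoA synthetase (chromosome 11, 54335689 to 54342980, fold 34.6). In reserve cells the strongest covered 2902 bp inside Lifr, the receptor of leukaemia inhibitory factor (chromosome 15, 7090291 to 7093192, fold 42.9). That Lifr peak lies at the 5′ end of the gene record, 36367 bp from the nearest transcript start used. A second start of Lifr was marked in both fractions, over 2558 bp in myotubes, against 3859 bp in reserve cells.

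Bases under the summits of lone myotube peaks outside promoters were poorer in GC and CpG than those of shared peaks, above all those at promoters. In the 201 bp around the summit of the 10104 lone myotube peaks outside promoters, median GC was 49.3% and the ratio of observed to expected CpG was 0.198. The 707 such reserve cell peaks had a GC of 48.3% and a CpG ratio of 0.284. At shared promoter peaks the values were 62.2% and 0.684 in myotubes and 63.2% and 0.720 in reserve cells. Shared peaks outside promoters were nearer to the lone ones, with 51.7% and 0.388 in myotubes and 51.7% and 0.357 in reserve cells. A MEF2 site stood at 2.62% (2.32 to 2.95) of lone myotube peaks outside promoters, against 1.27% (0.584 to 2.40) of those of reserve cells. A CAGGTG E-box stood at 14.9% (14.2 to 15.6) of the lone myotube peaks and 8.63% (6.66 to 10.9) of the lone reserve cell peaks. The CAGCTG E-box was at 15.0% (14.3 to 15.7) and 12.02% (9.72 to 14.7). The AP-1 site was at 8.01% (7.48 to 8.55) and 6.08% (4.44 to 8.11). Of these 4 motifs CAGGTG alone had intervals that do not overlap between the fractions. Shared peaks outside promoters held the MEF2 site in 1.10% of myotube and 1.48% of reserve cell peaks, and CAGGTG in 11.2% and 10.3%. A match is a run of letters, not a bound site.

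Across 21755 protein-coding genes, promoter H3K4me3 was found in myotubes alone at 703 genes (3.23% of those tested) and in reserve cells alone at 159 (0.731%). With the 15000 highest peaks of each list these counts were 337 (1.55%) and 407 (1.87%), so the direction of this difference turned with the number of peaks kept. Breadth was therefore the main measure. It counts the bases under peaks within 5 kb either side of the 5′ end of the gene record, and a gene was called broader in a fraction when it had at least 2-fold and at least 1000 bp more there. By this rule 922 genes (4.24%) were broader in myotubes and 133 (0.611%) in reserve cells. The counts were 735 (3.38%) and 209 (0.961%) with 15000 peaks each. Of the 922 and 133 genes, 714 and 130 kept their call with 15000 peaks each. Over the 11969 genes with covered bases in both, the median log2 ratio of myotube to reserve cell bases was 0.18, so the whole comparison leaned to myotubes. Centred on that median, 669 genes were broader in myotubes and 170 in reserve cells. With a window of 2 kb either side, 493 genes were broader in myotubes. A change in the share of cells that carry the mark and a change of the mark in each cell cannot be told apart in such bulk libraries.

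**Figure D2:**
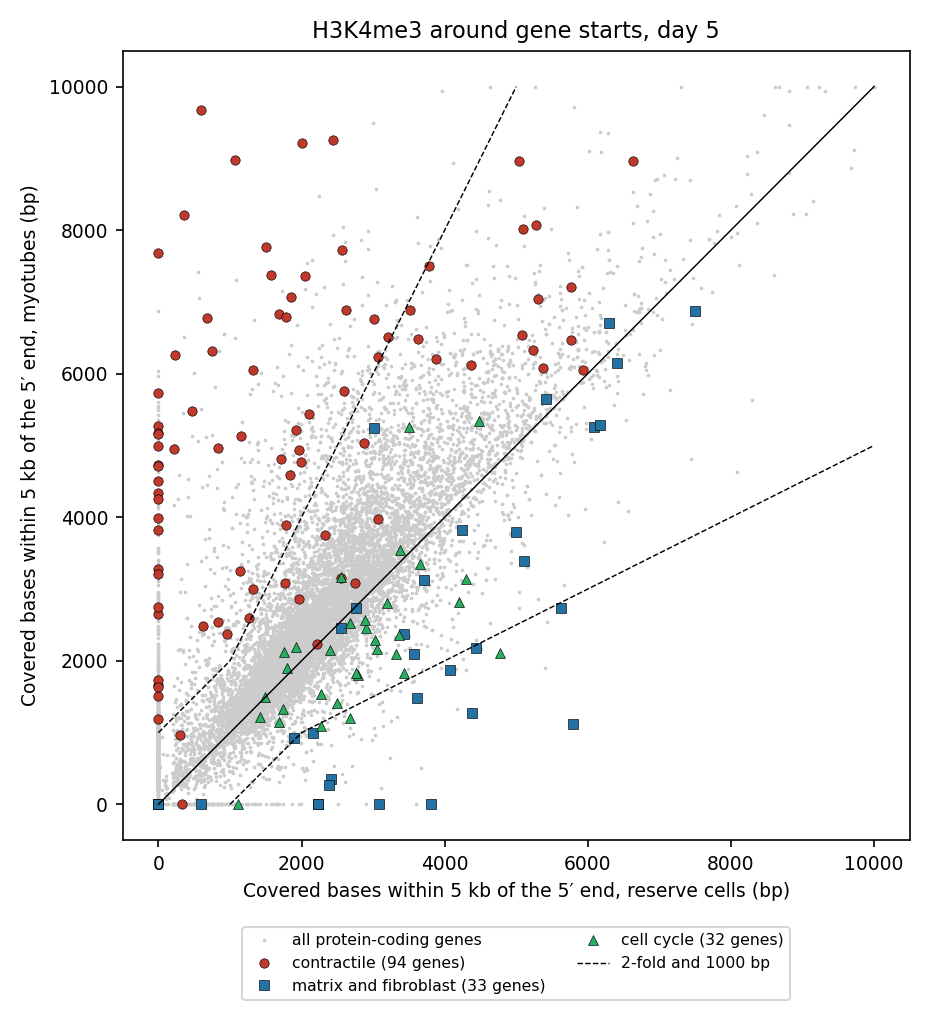
Bases covered by H3K4me3 peaks within 5 kb of the 5′ end of each protein-coding gene in myotubes (y axis, bp) and reserve cells (x axis, bp), 1 library each. The solid line marks equal values and the dashed lines the call rule. Of 94 contractile genes 60 lie above the upper dashed line, and of 33 matrix and fibroblast genes 13 lie below the lower one.

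The labels were checked against markers of each fraction. The 6 myotube markers had more covered bases in myotubes in every case, from 1048 against 512 bp for Ckm, the muscle creatine kinase, to 9211 against 2007 bp for Acta1. The Ckm gene record begins upstream of its marked start, where the peak was 5001 bp long (fold 54.0) in myotubes and 529 bp (fold 7.68) in reserve cells. Of 6 reserve cell markers, Cd34 was marked in reserve cells alone, Pax7 had more bases there, and Myf5, Id3 and Hey1 slightly more. Id1 had 5357 bp in myotubes, against 5349 bp in reserve cells. Of 16 genes of blood, endothelium and liver 12 had 0 bases in both fractions. Among these were Ptprc of leukocytes, Cdh5 of endothelium, and Alb and Afp of liver. The other 4 of the 16 had more bases in myotubes. Cd68, a macrophage gene, had 6627 bp in myotubes, against 3605 bp in reserve cells, in a window that also holds the start of Mpdu1. None of the 16 was called broader in either fraction, 3 had a promoter peak in myotubes alone with folds up to 5.85, and 0 did with 15000 peaks each.

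Contractile genes were broader in myotubes by a wide margin. Of 94 genes of the sarcomere and of excitation-contraction coupling, 60 were broader in myotubes and 0 in reserve cells, against 4.24% and 0.611% of all genes. The median was 5017 bp in myotubes, against 1294.5 bp in reserve cells, against 0 bp at day 0 and 1868.5 bp at day 1. Myotubes had more bases than reserve cells at 85 of the 94, fewer at 1, and 8 had none in both. Among these 8, Neb and Smyd1 were marked in both fractions at another start, outside the window. The peak there was 4589 bp long in myotubes, against 584 bp in reserve cells, for Neb, and 4469 and 876 bp for Smyd1. At 26 the promoter was marked in myotubes alone. With 15000 peaks each, 53 of 94 were broader in myotubes and 0 in reserve cells. The members and lists were chosen with earlier results of these data known, so the counts describe and do not test.

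Actin and thin filament genes led the list. Actc1, the cardiac alpha-actin of developing muscle, had 0 bp at day 0, 3179 bp at day 1, 9680 bp in myotubes, against 597 bp in reserve cells. The Actc1 promoter peak ran over 10304 bp in myotubes (fold 32.4) and 332 bp in reserve cells (fold 3.35). Acta1, the skeletal alpha-actin, had 0 bp at day 0, 3967 bp at day 1, 9211 bp in myotubes, against 2007 bp in reserve cells. In both genes the myotubes were far above all other libraries and the reserve cells were below day 1. Tnnc2, the calcium sensor of fast troponin, had 536, 1421, 6776 and 678 bp for day 0, day 1, myotubes and then reserve cells. Tpm3, a tropomyosin, had 8979 bp in myotubes, 1069 bp in reserve cells and 0 bp at day 0 and day 1. Another start of Tpm3 was marked in all 4 libraries, so the 5′ end of this gene record stands for 1 of its promoters. Of 22 thin filament genes 15 were broader in myotubes, with medians of 5941 bp in myotubes, against 1710.5 bp in reserve cells.

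Myosin heavy chain genes had promoter peaks in myotubes alone. Of 9 heavy chain genes 6 had a promoter peak in myotubes, 0 in reserve cells, and the same number were broader in myotubes. Myh3, the embryonic heavy chain, had 0 bp at day 0, 2868 bp at day 1, 8214 bp in myotubes, against 359 bp in reserve cells. Myh1, a fast adult heavy chain, had 7681 bp in myotubes and 0 bp in the other 3 libraries. Myh7, the slow heavy chain, likewise had 3989 bp in myotubes and 0 bp in the others. Myh7b had 6260 bp in myotubes, 236 bp in reserve cells, 0 bp at day 0 and 185 bp at day 1. Day 1 had thus marked the embryonic gene and left these adult genes at or near 0. Of 8 light chain and kinase genes 5 had a promoter peak in myotubes, against 4 in reserve cells, and 4 were broader in myotubes. Myl1, a fast essential light chain, had 5480 bp in myotubes, against 469 bp in reserve cells, and Mylk2, the skeletal myosin light chain kinase, 7068 and 1855 bp.

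Genes of the Z-disc, titin and the M-band followed, with 21 of 31 broader in myotubes. Ttn, which encodes the molecular spring of the sarcomere, had 1357 bp at day 0, 3359 bp at day 1, 7368 bp in myotubes, against 2043 bp in reserve cells. Actn2, a Z-disc alpha-actinin, had 5171 bp in myotubes and 0 bp in the other 3 libraries. Unc45b, the myosin chaperone, had 7729 bp in myotubes, against 2560 bp in reserve cells. Klhl41 and Lmod2, which stabilise and lengthen thin filaments, were among the promoters called in myotubes alone with the highest fold (55.6 and 51.1). Both nevertheless had 2626 and 2600 bp in reserve cells within 5 kb, so reserve cell peaks lay nearby but outside the 1 kb of the promoter call.

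Excitation-contraction coupling, the step from membrane depolarisation to calcium release, had 14 of 24 genes broader in myotubes. Atp2a1, the fast calcium pump of the sarcoplasmic reticulum, had 0 bp at day 0, 4115 bp at day 1, 9255 bp in myotubes, against 2439 bp in reserve cells. Cacna1s, the voltage sensor, had 6322 bp in myotubes, against 748 bp in reserve cells. Casq2, a calcium store protein, had 6833 bp in myotubes, against 1679 bp in reserve cells. Cacng6, a calcium channel gamma subunit, had 5734 bp in myotubes and 0 bp in the other 3 libraries. In reserve cells the voltage sensor was thus marked over fewer bases than the pump, though its promoter peak had a fold of 8.16, against 6.71 for the pump.

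Reserve cells also had peaks at contractile genes, which had a lower median fold and were shorter than the myotube peaks there. A promoter peak was called at 85 of the 94 in myotubes and at 59 in reserve cells. The median fold of these peaks, the highest of each gene, was 38.8 in myotubes and 10.1 in reserve cells. The whole lists, which also hold peaks outside promoters, had 9.55 and 39.9. Promoter peaks shared by the fractions had 35.0 in myotubes and 50.4 in reserve cells. The contractile peaks of myotubes were thus near the usual height of shared promoter peaks, and those of reserve cells were below it at the median. In myotubes 8 of the 85 had a fold below 10, and in reserve cells 29 of 59. The upper quartile of fold was 48.2 in myotubes and 54.8 in reserve cells, so the reserve cell peaks were not low throughout. At the 59 genes marked in both, the median promoter peak was 6267 bp long in myotubes, against 1992 bp in reserve cells, where the whole list had 1730 bp. The share of myotubes left in the reserve fraction was not measured here.

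The extra coverage at contractile genes ran mainly into the gene. Over the 94 genes, the stretch 2 to 5 kb downstream of the 5′ end was 57.6% covered in myotubes and 12.8% in reserve cells. The first 2 kb downstream were 80.5% and 43.5% covered, and the 2 kb upstream 47.9% and 14.9%. Over 11864 protein-coding genes marked at the promoter in both fractions the stretch 2 to 5 kb downstream was 15.4% covered in myotubes and 8.57% in reserve cells.

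**Figure D3:**
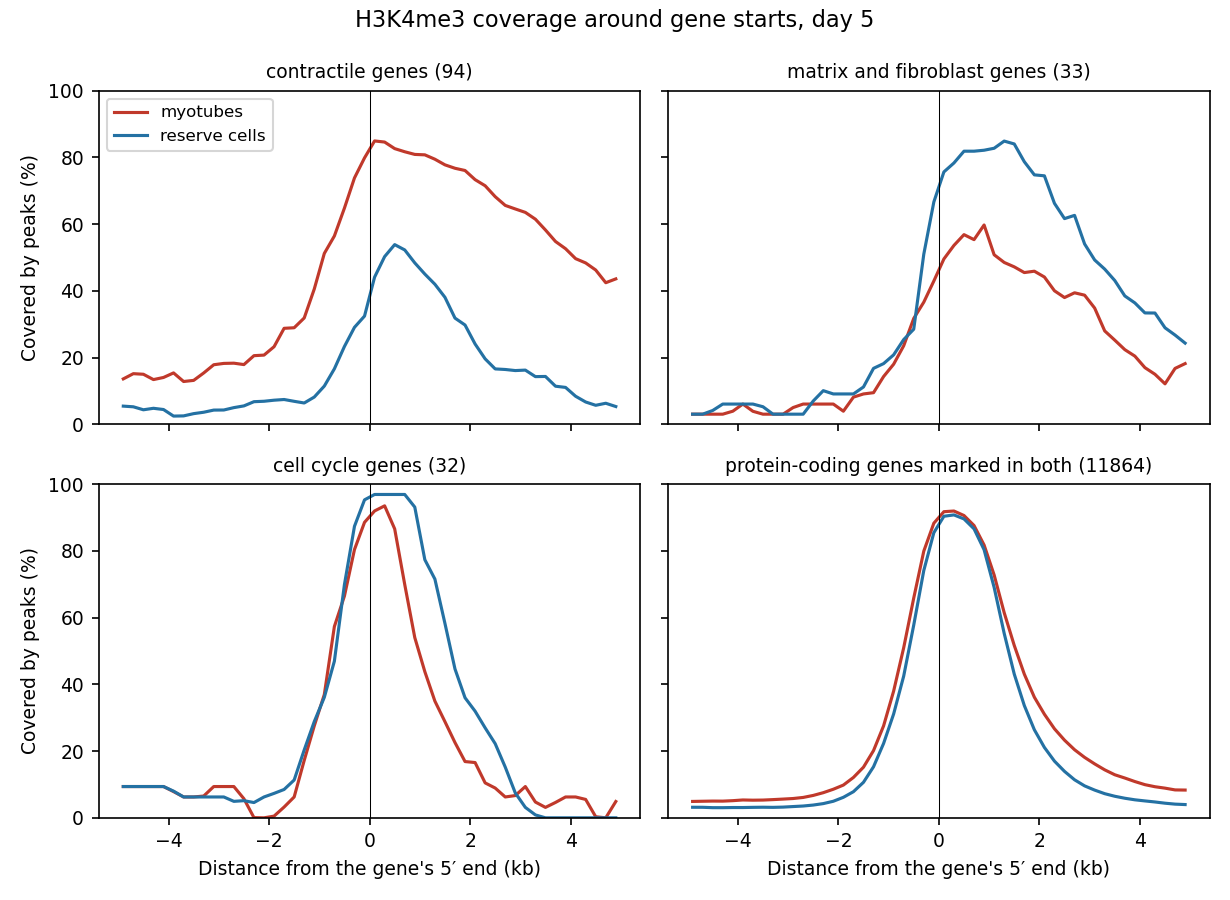
Share of bases covered by H3K4me3 peaks (y axis, %) in 200 bp bins by distance from the gene's 5′ end (x axis, kb, downstream to the right) in myotubes and reserve cells, 1 library each. Contractile genes are covered 57.6% (myotubes) and 12.8% (reserve cells) at 2 to 5 kb downstream, and matrix and fibroblast genes 27.3% and 45.3%.

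Other gene groups of the fibre were broader in myotubes, at smaller shares. Of 13 genes of the neuromuscular junction 5 were broader in myotubes and 0 in reserve cells. Chrng, the fetal subunit of the acetylcholine receptor, had 0 bp at day 0, 2409 bp at day 1, 7181 bp in myotubes, against 2053 bp in reserve cells. Ache, acetylcholinesterase, had 4165 bp in myotubes, against 218 bp in reserve cells. Of 14 genes of the dystrophin complex and sarcolemma 6 were broader in myotubes. Dmd, at the 5′ end of its gene record, had 4511 bp in myotubes and 0 bp in the other 3 libraries. Ano5, a membrane repair protein, had 6291 bp in myotubes, against 745 bp in reserve cells. Of 21 energy genes 8 were broader in myotubes, led by Pygm, the muscle glycogen phosphorylase, with 4453 bp in myotubes, against 685 bp in reserve cells. Pgam2, a muscle glycolytic enzyme, had 3295 and 882 bp. Of 13 protein turnover genes 6 were broader in myotubes, among them the ubiquitin ligase gene Trim63 (MuRF1) with 7158 bp in myotubes, against 1729 bp in reserve cells. No gene of these 4 groups was broader in reserve cells. Of all genes 4.24% were broader in myotubes and 0.611% in reserve cells.

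Fusion genes and muscle transcription factors were mostly marked in both fractions. Of 16 fusion genes 2 (12.5%) were broader in myotubes, against 4.24% of all genes. Mymk, the fusogen Myomaker, had 0 bp at day 0, 3574 bp at day 1, 8046 bp in myotubes, against 2579 bp in reserve cells. Tmem182, a membrane protein of muscle, had 4258 bp in myotubes, 268 bp in reserve cells and 0 bp at both earlier times. Of 18 transcription factor genes all had a promoter peak in both fractions, 2 (11.1%) were broader in myotubes, and the list median was 5218.5 bp in myotubes, against 3942 bp in reserve cells. Myog, which drives late differentiation, had 0 bp at day 0, 2673 bp at day 1, 5316 bp in myotubes, against 2364 bp in reserve cells, and did not keep its call with 15000 peaks each. Mef2c had 6870 bp in myotubes and 0 bp in the other 3 libraries at its gene record's 5′ end, and another of its starts was marked in all 4. Myod1, the determination factor, had 7748 bp in myotubes, against 3943 bp in reserve cells, just under the 2-fold limit. Myf6 had 5155 and 2948 bp, and Myf5, the other early factor, 5182 bp in myotubes, against 5605 bp in reserve cells.

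MicroRNA genes of muscle went with the sarcomere. Of 10 microRNA genes 7 were broader in myotubes and 0 in reserve cells. The other 3 (Mir208a, Mir208b and Mir499) had no bases in any of the 4 libraries. These windows lie at the microRNA's own 5′ end, so a start further upstream is not counted. Upstream of Mir499 on its strand, Myh7b had 6260 bp in myotubes, against 236 bp in reserve cells. Likewise Myh7, upstream of Mir208b, had 3989 and 0 bp, and Myh6, upstream of Mir208a, 0 bp in both. RefSeq mature sequences are shown for the neighbouring pair of chromosome 1 and for the 5p strand of Mir1a-1, with the seed (bases 2 to 8), the part that pairs with targets, in capitals.
mmu-miR-206-3p: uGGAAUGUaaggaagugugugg
mmu-miR-133b-3p: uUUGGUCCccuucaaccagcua
mmu-miR-1a-1-5p: aCAUACUUcuuuauaugcccaua
Mir206 had 1844 bp at day 0, 3856 bp at day 1, 6255 bp in myotubes, against 1077 bp in reserve cells. Mir133b, next to it, had 407, 481, 2496 and 0 bp in the same order, and its call was not kept with 15000 peaks each. Mir1a-1 had 0 bp at day 0, 4095 bp at day 1, 9454 bp in myotubes, against 2925 bp in reserve cells. Mir486, which lies within an ankyrin gene, had 2048, 5790, 9020 and 2476 bp. At Mir206 and Mir133b the reserve cells were thus below day 0, and at Mir1a-1 and Mir486 above it.

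Matrix and fibroblast genes went the other way. Of 33 genes, 0 were broader in myotubes and 13 in reserve cells, against 4.24% and 0.611% of all genes. The median was 2098 bp in myotubes, against 3616 bp in reserve cells, against 4513 bp at day 0 and 3880 bp at day 1. Myotubes had more bases at 3 of the 33, reserve cells at 27, and 3 had none in both. At 7 the promoter was marked in reserve cells alone. The count for reserve cells was 14 with 15000 peaks each.

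Collagen and proteoglycan genes gave the largest differences among them. Col1a2, a chain of type I collagen, had 4711 bp at day 0, 5518 bp at day 1, 1122 bp in myotubes, against 5793 bp in reserve cells. Its promoter peak ran over 1122 bp in myotubes (fold 7.48) and 7425 bp in reserve cells (fold 22.1). Bgn, the proteoglycan biglycan, had 4678, 3880, 1270 and 4384 bp for day 0, day 1, myotubes and then reserve cells. Col6a2, a chain of type VI collagen, had 0 bp in myotubes, against 2225 bp in reserve cells, with 1807 and 2210 bp at day 0 and day 1. Col8a1, outside the list, had 1895 bp in myotubes, against 5402 bp in reserve cells. In these 4 genes the myotubes stood apart and the reserve cells lay near the earlier times. Prelp and Ccn5 differed from them. Prelp, a leucine-rich repeat proteoglycan, had 0 bp at day 0, 585 bp at day 1, 0 bp in myotubes, against 3806 bp in reserve cells. Ccn5, a secreted CCN family protein, had 0, 1255, 0 and 3077 bp. Both were therefore marked in reserve cells beyond either earlier time.

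Further genes with the largest excess in reserve cells came from several families. Cmklr1, the chemerin receptor, had 1164 bp at day 0, 2951 bp at day 1, 0 bp in myotubes, against 3601 bp in reserve cells (fold 29.1). Tagln, the smooth muscle actin-binding protein transgelin, had 4764, 4604, 511 and 3674 bp in the same order. It was the only 1 (5.56%) of 18 contractile and motile cytoskeleton genes that passed the rule, against 0.611% of all genes broader in reserve cells. Capn6, a calpain, had 2682, 3657, 0 and 3133 bp. Igfbp4, which binds insulin-like growth factors, had 1385, 2759, 231 and 3105 bp. Of 13 genes of that axis Igfbp6 was broader in myotubes, with 4297 bp there against 2044 bp in reserve cells. Igfbp4 and Igfbp3 were broader in reserve cells. These were 7.69% and 15.4% of the list, against 4.24% and 0.611% of all genes. Igfbp6 did not keep its call with 15000 peaks each.

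**Figure D4:**
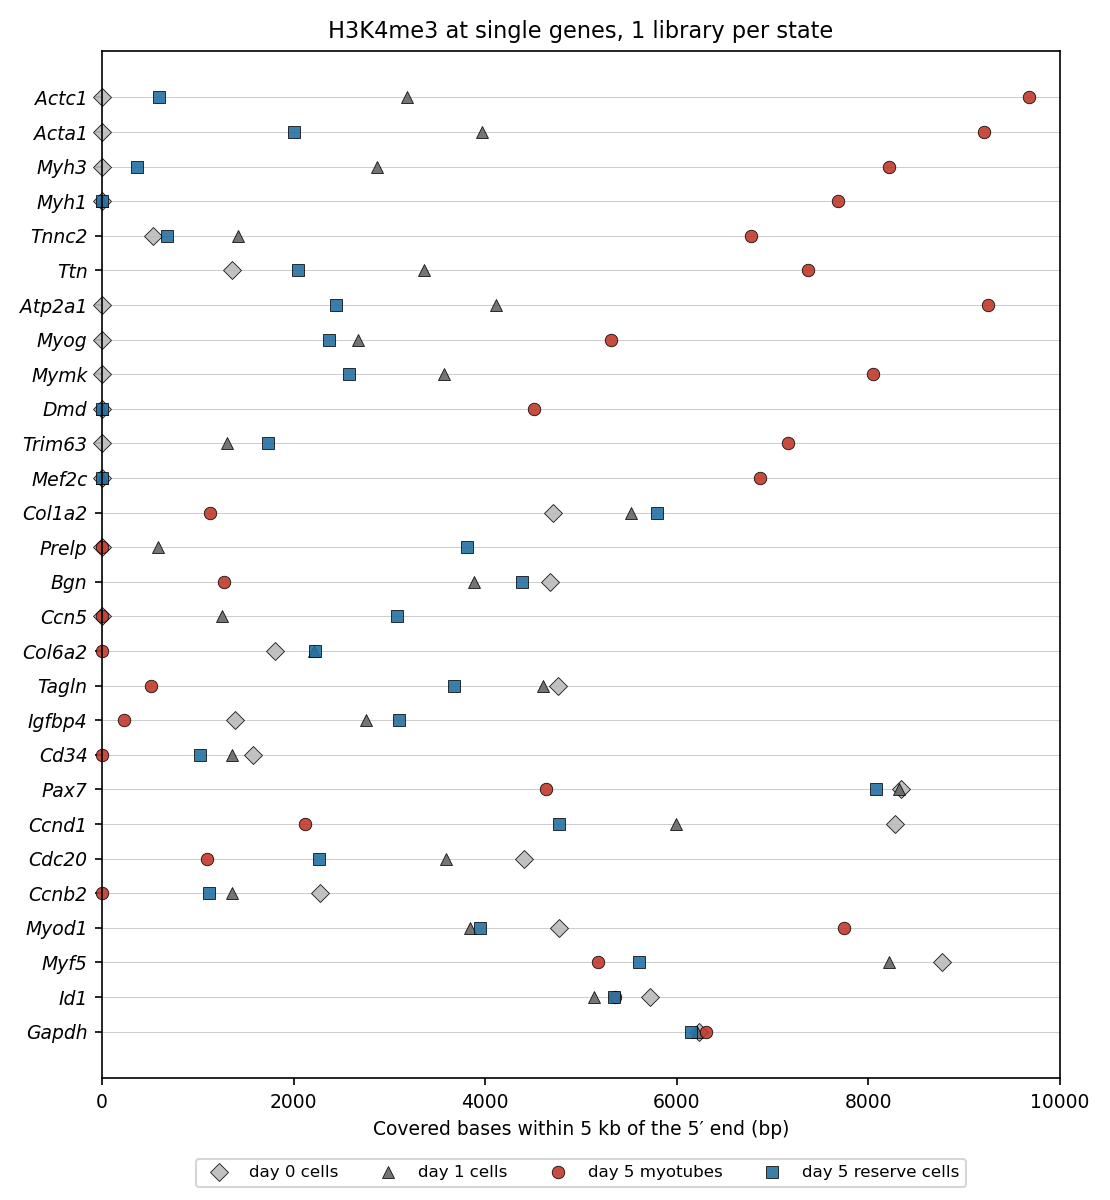
Bases covered by H3K4me3 peaks within 5 kb of the 5′ end (x axis, bp) for 28 genes (rows) at day 0, at day 1 and in both day 5 fractions, 1 library each. Myotubes stand far right for the muscle genes at the top (Actc1 9680 bp) and far left for the matrix genes below them (Col1a2 1122 bp against 5793 bp in reserve cells), while the 4 symbols of Gapdh fall together.

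Genes that mark satellite and reserve cells were mostly marked in both fractions. Of 26 such genes 9 had more bases in myotubes and 14 in reserve cells, where over all 21755 genes 9881 and 3139 did. By the call rule 1 (3.85%) was broader in myotubes and 2 (7.69%) in reserve cells, against 4.24% and 0.611% of all genes. The medians were 3116 bp in myotubes, against 3879.5 bp in reserve cells. Cd34, a surface antigen of quiescent satellite cells, had 1576 bp at day 0, 1351 bp at day 1, 0 bp in myotubes, against 1022 bp in reserve cells. Col5a3, a type V collagen chain, had 2330, 2177, 0 and 2219 bp. The 1 gene broader in myotubes, Ngfr, had 1005 bp there and 0 bp in reserve cells, and did not keep its call with 15000 peaks each.

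Pax7, the paired-box factor of satellite cells, had 8340 bp at day 0, 8318 bp at day 1, 4636 bp in myotubes, against 8084 bp in reserve cells. It was not called, since the reserve cell value was less than 2-fold higher. In myotubes 4 peaks of 3588, 567, 1367 and 4326 bp, with folds of 5.18, 3.74, 8.55 and 41.1, lay over the gene's 5′ part. In reserve cells a single peak of 15513 bp (chromosome 4, 139821099 to 139836611, fold 53.3) ran over the same stretch, and the myotube peaks covered 63.5% of it. The myotube mark was thus kept near the start and low elsewhere. A wide domain in pieces did not always go with lost bases: the reserve cell peak of 32570 bp over Hoxc11, Hoxc10 and Hoxc9 was touched by 3 myotube peaks that covered 96.5% of it, 1 of which lay almost wholly outside it. A reserve cell peak of 5493 bp at Synpo, which encodes the actin-binding protein synaptopodin, held 4 myotube peaks that covered 76.6% of it. Pax3 had 0 bp in all 4 libraries.

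Signalling genes of quiescence showed few calls. Of 21 Notch pathway genes 0 were broader in myotubes and 1 (4.76%) in reserve cells, against 4.24% and 0.611% of all genes. That was Notch3, a receptor, with 3701 bp at day 0, 4825 bp at day 1, 1892 bp in myotubes, against 4157 bp in reserve cells. The target genes Hes1 (6611 bp in myotubes, against 6521 bp in reserve cells) and Hey1 (3677 and 4099 bp) were close to each other in the fractions. Of 28 Id, BMP and TGF-beta genes 0 were broader in myotubes and 1 (3.57%) in reserve cells, beside the same shares of all genes. The 1 was the activin subunit gene Inhba with 2548 bp in myotubes, against 5435 bp in reserve cells. Id3, an inhibitor of basic helix-loop-helix factors, had 5727 and 6404 bp. Bmp4 was called at its promoter in reserve cells alone with a fold of 70.1, but had 3644 bp in myotubes, against 5076 bp in reserve cells within 5 kb. Of 29 Wnt genes 2 were broader in myotubes and 1 in reserve cells, against 4.24% and 0.611% of all genes. Those of myotubes were Wnt10b with 5087 bp, against 1752 bp in reserve cells, and Wnt1 with 1714 bp, against 0 bp. The Wnt antagonist gene Sfrp2 was the gene broader in reserve cells, with 859 bp in myotubes, against 1992 bp in reserve cells. With 15000 peaks each Wnt1 did not keep its call, and 2 of the 29 were broader in myotubes and 3 in reserve cells.

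Cell cycle genes were shorter marked in myotubes. Of 32 genes 0 were broader in myotubes and 4 in reserve cells, against 4.24% and 0.611% of all genes. Myotubes had more bases at 8 of the 32 and reserve cells at 24, where over all 21755 genes they had more at 9881 and 3139. The median was 2136 bp in myotubes, against 2775.5 bp in reserve cells, against 4434.5 bp at day 0 and 3535 bp at day 1. Ccnd1, the G1 cyclin, had 8282 bp at day 0, 5988 bp at day 1, 2114 bp in myotubes, against 4767 bp in reserve cells. Mcm6, a helicase subunit of replication, had 3328, 2937, 1197 and 2680 bp, and Cdc20, an activator of the anaphase-promoting complex, 4401, 3594, 1097 and 2266 bp. Ccnb2, a mitotic cyclin, had 2277, 1355, 0 and 1111 bp. In all 4 genes both day 5 fractions were below day 0 and day 1, and the myotubes lowest. The contrast lay downstream of the start: the first 2 kb were 54.3% covered in myotubes and 76.8% in reserve cells, while the 2 kb upstream were 38.4% and 41.2% covered. With 3-fold in place of 2-fold, 1 of the 32 was broader in reserve cells. Of 16 genes of cell cycle exit none was called in either direction, with medians of 4407 bp in myotubes, against 3910.5 bp in reserve cells.

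**Figure D5:**
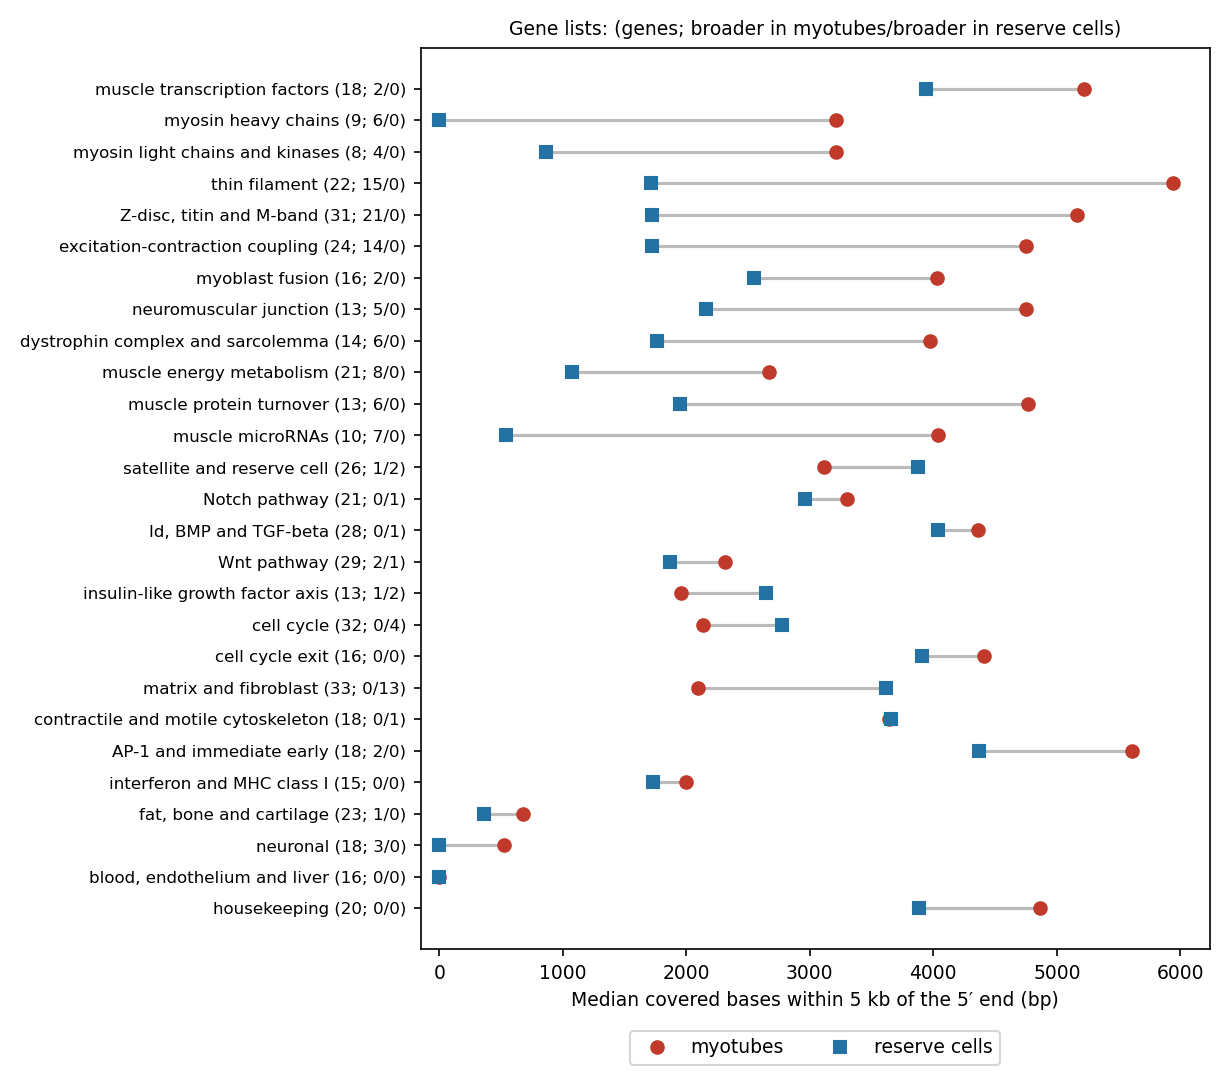
Median bases covered within 5 kb of the 5′ end (x axis, bp) for 27 gene lists in myotubes and reserve cells, 1 library each. Each row gives the number of genes, then those broader in myotubes and in reserve cells. The muscle structure lists have the myotube symbol far to the right, and the matrix and fibroblast (13 of 33 broader in reserve cells) and cell cycle lists (4 of 32) have it to the left.

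Control lists set the scale, beside 4.24% of all genes broader in myotubes and 0.611% in reserve cells. Of 20 housekeeping genes none was called in either direction, 18 had more bases in myotubes, and their median log2 ratio was 0.25. Gapdh had 6306 bp in myotubes, against 6147 bp in reserve cells, and Actb 8127 and 6831 bp. Of 15 interferon and MHC class I genes none was called. Of 18 immediate early genes 2 (11.1%) were broader in myotubes. They were the nuclear receptor Nr4a1 with 5696 bp against 1717 bp and Atf3 with 1594 bp against 0 bp. Another start of Atf3 was marked in both fractions, with a fold of 17.6 in myotubes and 31.7 in reserve cells. The highest Nr4a1 promoter peak of reserve cells (fold 49.4) also lay at another start, outside the window, and that of myotubes (fold 48.4) inside it. Of 23 fat, bone and cartilage genes 1 (4.35%, near the share of all genes) was broader in myotubes, Sp7 with 1122 bp against 0 bp. Of 18 neuronal genes 3 (16.7%) were broader in myotubes. They were Nefm with 1951 bp, Slc17a7 with 1316 bp and Nefl with 1143 bp, each against 0 bp in reserve cells. These 3 had been marked at day 0 over 2965, 827 and 3781 bp. With 15000 peaks each, 1 of the 18 neuronal genes was broader in myotubes, against 3.38% of all genes.

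Genes that differ had a different past on the 2 sides. Of the 922 genes broader in myotubes 633 (68.7%) had a promoter peak at day 0, and of the 133 broader in reserve cells 117 (88.0%) did. By covered bases within 5 kb, 243 of the 922 and 12 of the 133 had 0 bp at day 0. The same held for 349 of 11181 genes marked in both and not called, and for 9170 of all 21755. Genes broader in myotubes without any muscle list included Art1, an ADP-ribosyltransferase (7421 bp in myotubes, against 555 bp in reserve cells), Grtp1 (9262 and 2452 bp) and Mtss1l (9497 and 2999 bp), all among the 10 largest differences. MBD2, the methyl-CpG binding protein mapped in the same series, had few day 5 peaks, 287 of them in myotubes, against 111 in reserve cells. It was called at the promoter of 10 of the 922 genes in myotubes and of 1 in reserve cells, and at 1 and 0 of the 133, against 136 of all 21755 in myotubes and 55 in reserve cells.

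The promoters of the called genes were less rich in CpG than those of genes marked in both and not called. In the 250 bases before the GENCODE 5′ end, the median ratio of observed to expected CpG was 0.522 for genes broader in myotubes, 0.454 for those broader in reserve cells, 0.723 for 11177 genes marked in both and not called, and 0.490 for all 21748 genes. A MEF2 site stood in 5.75% (4.34 to 7.45) of promoters of genes broader in myotubes, in 2.26% (0.468 to 6.45) of those broader in reserve cells, in 1.52% of the marked, uncalled genes and in 2.69% of all 21748. A CAGGTG E-box stood in 24.3% (21.6 to 27.2), 16.5% (10.7 to 24.0), 14.5% and 17.6% in the same order. A CAGCTG E-box stood in 17.6% (15.2 to 20.2), 15.8% (10.05 to 23.1), 11.3% and 12.1%. The CArG box stood in 0.759%, 2.26%, 1.10% and 1.34%, the AP-1 site in 6.29%, 5.26%, 3.94% and 6.01%, and the TATA box in 8.57%, 8.27%, 6.40% and 11.5%. For each of the 6 motifs the interval of genes broader in myotubes overlapped that of genes broader in reserve cells. The groups also differ in CpG content, as given above, and its part in these shares was not tested.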

How the data were processed

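Peak lists of H3K4me3 CUT&RUN were used as deposited. The submitters' processing notes name Trim Galore, Bowtie2, SAMtools, MACS2 and the mm10 build. Tool versions, peak calling settings, read totals and any control are not stated in the sources used here. Per the file headers, the deposited pileup is a signal, the fragment coverage at the summit, and the deposited fold enrichment is its ratio to local background. The deposited −log10 p-values and −log10 q-values have damaged column names and were identified by their place. These authors' values serve only to rank, filter and describe the peaks of 1 list.

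Genes and transcript starts came from GENCODE M21 basic (mm10). Overlaps, covered bases and motif counts were computed with Python 3.11.15, numpy 2.4.6, pandas 2.3.3 and scipy 1.17.1, and checked on simulated peaks. With 1 library per group no test was possible, and intervals cover counting error only. Members and lists were chosen with earlier results of these data known. Named genes are, per list and direction, up to 4 called genes with the largest difference, the 10 largest differences and 5 highest lone promoter folds per direction, genes of the 3 reserve cell peaks over most myotube peaks, and preset markers. One gene picked by this rule is not reported here. Other genes named were chosen after their values were seen. The 4 IgG samples are not analysed here.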

Additional observations from a re-analysis of the deposited data

How the results depend on the processing

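Overlap shares, median ratios and counts of called genes, 11 results in all, were recomputed under 13 other settings, 1 of them chosen after seeing the data. Single genes, other lists and sequence shares were not, and several settings cannot move the overlap shares by construction. Values outside the 95% interval of the reported share or median, or counts more than 1.5 times apart, are given here. No ratio changed sign, but the order of the promoter counts turned. With 15000 peaks each, 85.7% of myotube and 88.6% of reserve cell peaks were overlapped, 337 promoters were marked in myotubes alone and 407 in reserve cells alone, 209 genes were broader in reserve cells, and the median log2 ratio of covered bases was 0.16 (0.1594). With as many myotube peaks as reserve cell peaks the values were 83.5% and 87.6%, 343 and 411 promoters, and a ratio of 0.1593. With −log10 q of at least 5 they were 67.1%, 94.5% and a ratio of 0.1677. Joining peaks closer than 1000 bp gave 60.7% and 94.7% and a median log2 length ratio of 0.19, and an overlap of 50% of the shorter peak gave 93.1% of reserve cell peaks. The ratio of covered bases was 0.10 within 2 kb and 0.21 within 10 kb. Within 2 kb, 493 genes were broader in myotubes and 8 matrix genes in reserve cells. With 3-fold, 508 genes were broader in myotubes and 78 in reserve cells, with 8 matrix and 1 cell cycle gene among them, and with 500 bp 228 were broader in reserve cells. The causes were not tested. Contractile genes broader in myotubes ran from 41 to 65 of 94 over all alternatives. The transcript start with the most bases, the added setting, gave 988 and 139 genes. No paired analysis was possible because each group is 1 library and no result comes from a test. Depth is unknown, so a missing peak is not a missing mark.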
